A study of Drosophila melanogaster with 2 samples.

Results

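Of the 8714 reproducible Slbo-eGFP ChIP-seq summits on the 6 large chromosome arms of the Drosophila melanogaster embryo, 205 lay at promoters of non-coding genes alone. A summit, the base of highest signal in a peak, was counted when it lay within 500 bp of an annotated start site of a gene that is not protein-coding and had no protein-coding start site within 500 bp. Transposable elements were left out. The measured material was 1 group of 2 biological replicates, whole embryos of 8 to 24 h from a transgenic line that carries an slbo-eGFP fusion. Per the descriptions, chromatin was precipitated with an antibody against GFP, although the antibody label reads slbo. All cell types of the embryo are pooled in such a sample. The sources used here do not give the extent or copy number of the transgene, and the labelled possible control experiment was not used here. Every value below is therefore a level within this group, and nothing was measured in embryos without the transgene. The deposited lists hold peaks and no reads, so read depth is unknown. The series-level list, of which the 205 summits are part, had 8786 peaks in all, and the replicates' own lists had 7124 (replicate 1) and 5382 (replicate 2) peaks on the arms.

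Slow border cells (Slbo) is a fly member of the C/EBP family, basic leucine zipper factors that bind a palindromic site as dimers. It is best known for the migration of the border cells in the ovary. Non-coding genes are read by different polymerases. RNA polymerase II makes long non-coding RNAs, the primary transcripts from which microRNAs and many snoRNAs are cut, and most spliceosomal snRNAs, while RNA polymerase III makes tRNAs, U6 snRNA and the 7SK RNA that holds the elongation factor P-TEFb inactive. The annotated start of a microRNA hairpin or an intronic snoRNA is the end of a processed RNA and not the start of its transcript.

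Shown first, for the base composition and motifs of strong summits, are 5 of the 7 highest of the set; those of lncRNA:CR44339 and lncRNA:CR44810 are not printed. Each is the 100 bases around the summit, on the plus strand of the dm6 assembly, read from the RefSeq genome of the same assembly. Capitals would mark TTRYRYAA, a C/EBP-type site (R for either purine, Y for either pyrimidine), searched on both strands; none of these 5 windows holds it. The first and second shown lie on either side of the start of lncRNA:CR44619, at chrX:12751389-12751488 and chrX:12752312-12752411. The third, at chr3R:29214401-29214500, lies upstream of lncRNA:CR31044, the transcript that holds mir-279 and mir-996. The fourth, at chr3R:17700537-17700636, lies in an intron of osa beside lncRNA:CR46036, and the fifth, at chrX:15298374-15298473, lies in gce beside asRNA:CR44429.
lncRNA:CR44619 upstream summit: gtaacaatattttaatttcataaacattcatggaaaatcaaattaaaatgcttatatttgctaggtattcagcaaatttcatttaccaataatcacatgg
lncRNA:CR44619 downstream summit: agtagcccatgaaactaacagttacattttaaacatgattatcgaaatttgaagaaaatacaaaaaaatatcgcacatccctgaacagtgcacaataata
lncRNA:CR31044: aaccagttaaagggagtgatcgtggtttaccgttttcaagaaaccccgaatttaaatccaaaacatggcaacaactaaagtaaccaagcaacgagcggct
lncRNA:CR46036: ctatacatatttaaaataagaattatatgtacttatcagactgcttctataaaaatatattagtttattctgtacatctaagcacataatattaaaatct
asRNA:CR44429: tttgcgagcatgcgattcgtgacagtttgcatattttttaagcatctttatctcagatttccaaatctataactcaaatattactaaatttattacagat

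Of the 9 member windows that hold TTRYRYAA, 5 are shown for contrast, in the same orientation, with the match in capitals. They lie at chrX:2322041-2322140 (lncRNA:CR34052), chr3R:26235197-26235296 (lncRNA:CR46061), chr3R:24574157-24574256 (lncRNA:CR46094), chr3L:8751497-8751596 (lncRNA:CR44527) and chr2L:19159324-19159423 (lncRNA:CR44977).
lncRNA:CR34052: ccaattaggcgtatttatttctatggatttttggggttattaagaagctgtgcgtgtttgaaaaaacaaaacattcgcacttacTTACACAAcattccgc
lncRNA:CR46061: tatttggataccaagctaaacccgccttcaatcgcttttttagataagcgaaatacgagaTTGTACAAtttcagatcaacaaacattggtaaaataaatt
lncRNA:CR46094: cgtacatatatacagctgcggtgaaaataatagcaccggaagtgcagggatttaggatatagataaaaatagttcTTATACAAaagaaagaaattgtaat
lncRNA:CR44527: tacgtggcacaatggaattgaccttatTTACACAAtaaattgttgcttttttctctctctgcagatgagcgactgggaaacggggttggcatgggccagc
lncRNA:CR44977: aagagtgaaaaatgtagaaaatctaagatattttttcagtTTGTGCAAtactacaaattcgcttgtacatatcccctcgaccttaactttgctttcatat

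The windows of 4 summits at RNA polymerase III genes are shown because these genes have near-identical copies or an internal promoter element. The 2 tRNA windows are among the 3 of 18 that hold the motif marked here, and the snRNA windows hold none. They run in the direction of the gene, and capitals mark GGTTCGA, the core of the B box, the internal promoter element that TFIIIC binds within tRNA genes. They lie at chr3R:24557071-24557170 (snRNA:U6:96Ac, plus strand), chr3R:7474710-7474809 (snRNA:7SKa, minus strand), chr2L:14518304-14518403 (tRNA:Gly-GCC-1-5, minus strand) and chr2L:7872826-7872925 (tRNA:Gly-GCC-1-3, plus strand). Shifted by 3 bases, the 2 glycine tRNA windows were identical at 74 of 97 bases, so how reads were shared between such copies bears on these peaks, and the sources used here do not give it.
snRNA:U6:96Ac: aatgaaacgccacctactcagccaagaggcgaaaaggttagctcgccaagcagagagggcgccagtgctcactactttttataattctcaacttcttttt
snRNA:7SKa: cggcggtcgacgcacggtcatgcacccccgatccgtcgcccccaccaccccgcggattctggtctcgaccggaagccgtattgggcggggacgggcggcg
tRNA:Gly-GCC-1-5: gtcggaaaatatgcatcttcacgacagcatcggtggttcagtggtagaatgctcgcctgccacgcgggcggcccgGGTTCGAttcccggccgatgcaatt
tRNA:Gly-GCC-1-3: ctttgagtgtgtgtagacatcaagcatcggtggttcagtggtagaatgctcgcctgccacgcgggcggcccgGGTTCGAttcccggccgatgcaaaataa

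Several summits lay at the starts of microRNA transcripts, and the mature RNAs of 6 of these microRNAs, one arm each, are given with the seed (bases 2 to 8) in capitals. They were read from the RefSeq annotation of the same assembly. The arms of mir-279 and mir-996, which lie in the same transcript, share the seed GACUAGA, and the other 4 each have a seed of their own. They lie at chr3R:29215651-29215672 (mir-279), chr3R:29217244-29217265 (mir-996), chr2L:7425853-7425875 (mir-275), chr3L:642259-642281 (mir-ban, the microRNA bantam), chr3R:10100080-10100102 (mir-277) and chr3R:10100952-10100975 (mir-34), all on the plus strand.
mir-279-3p: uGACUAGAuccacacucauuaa
mir-996-3p: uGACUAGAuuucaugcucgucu
mir-275-3p: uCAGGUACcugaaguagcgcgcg
mir-ban-3p: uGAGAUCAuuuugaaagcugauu
mir-277-3p: uAAAUGCAcuaucugguacgaca
mir-34-5p: uGGCAGUGugguuagcugguugug

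Long non-coding genes held most of the set, as they do of the annotated non-coding genes and of the bases the rule admits. They were 2520 of 3738 genes and 2024199 of 2810313 bases. By the class of the nearest non-coding start, 154 of the 205 summits (75.1%) were at long non-coding genes, 18 at tRNA genes, 12 at snoRNA genes, 11 at microRNA hairpins, 7 at snRNA genes and 3 at pseudogenes, and none was at an rRNA gene. The 205 summits belonged to 193 nearest genes, 12 of which had 2 summits. Among the nearest symbols, 126 began with lncRNA: and 25 with asRNA: (antisense RNA), and 125 of the first kind were known only by a CR number. In 15 summits more than 1 non-coding gene had a start within 500 bp, and in 6 of them the genes were of more than 1 class. In replicate 1's own list 160 summits (2.25%) met the same rule and in replicate 2's own list 117 (2.17%), against 205 (2.35%, 95% Wilson interval 2.05 to 2.69) in the series-level list. The share of summits at non-coding promoters was thus 2.21% ± 0.0509 (SD, n = 2 replicates), while the count differed between the lists. A further 173 summits had a non-coding and a coding start within 500 bp and are not in the set.

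Non-coding promoters were hit far less often than coding ones. Of 3738 non-coding genes on the arms, 372 had any summit within 500 bp of a start (9.95%, 9.03 to 11.0) and 210 had a summit of the set (5.62%, 4.92 to 6.40). Of 13945 protein-coding genes, 4456 had one (32.0%, 31.2 to 32.7). The gap was similar per base. The rule for non-coding genes covers 2.10% of the bases of the arms and took 2.35% of summits, a ratio of 1.12 (0.979 to 1.28), against 43.8% of summits in 11.5% of bases, a ratio of 3.82 (3.73 to 3.91), at protein-coding starts. The interval of the first ratio includes 1, so summits at these promoters as a whole were not shown to be denser than over the arms.

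In this measure the intervals of snRNA genes and pseudogenes excluded 1, each on few summits. snRNA genes had 4.30 times their share of bases (2.08 to 8.87), with 7 of 32 genes hit, and pseudogenes had 0.219 times (0.0746 to 0.645), with 3 summits. A pair of the 7 snRNA summits were neighbours at snRNA:7SKa, and with summits of signal under 40 left out the snRNA ratio was 3.77 (1.73 to 8.23). The intervals of tRNA genes (1.47, 0.931 to 2.32), snoRNA genes (1.43, 0.819 to 2.50), long non-coding genes (1.17, 0.999 to 1.37) and microRNAs (0.861, 0.481 to 1.54) included 1. Those of tRNA and snoRNA genes overlapped the snRNA interval. None of 99 rRNA genes on the arms had a summit. None of the lower-ranked summits of the series-level ranked list met the rule there either. Whether peaks could be called at these genes is unknown, so no share is given for them. Among the 117388 lower-ranked summits of the series-level ranked list, non-coding-only promoters took 2.28%, against 12% at protein-coding promoters. The share of non-coding-only promoters was therefore alike in thresholded and lower-ranked peaks, while that of coding promoters differed between them. Pseudogenes took 0.0869% of the lower-ranked summits, with 0.157% of the arm bases.

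**Figure D1:**
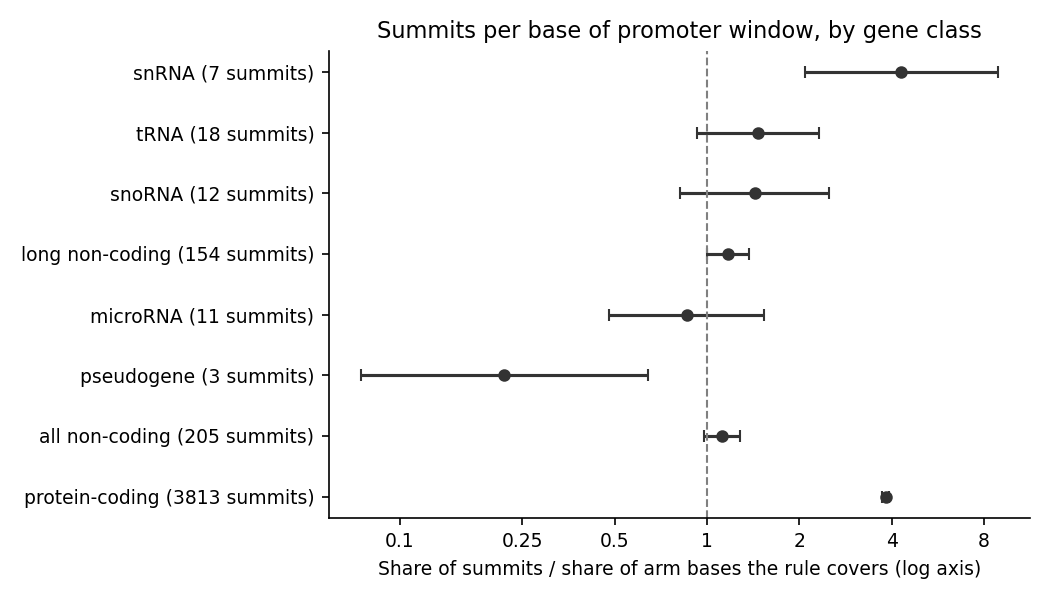
Ratio of each class's share of thresholded summits to its share of arm bases covered by the 500-bp rule (log axis), with 95% Wilson intervals as bars and a dashed line at 1. snRNA genes stand at 4.30 and pseudogenes at 0.219, while all non-coding genes together stand at 1.12, against 3.82 for protein-coding promoters.

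Among the long non-coding genes, a few summits were among the highest in the embryo. Of the 100 highest of all summits 6 were in the set, and 29 were among the highest 1000. The set made up 2.35% of all summits and 2.75% (2.08 to 3.63) of the highest quintile by signal. The peak signal below is the authors' own value per peak, with no stated scaling for depth, and is read within a list only. The upstream summit of lncRNA:CR44619 had a signal of 2097 in the series-level list, 1043 in replicate 1 and 1090 in replicate 2. Its downstream summit had 2053, 1083 and 977. The pair ranked 28 and 35 of all summits, lay 428 bp before and 495 bp after the start, and were 5122 and 6045 bp from the nearest protein-coding start, that of CG4004.

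lncRNA:CR44339, on 2R with Psc as the nearest coding start, a Polycomb group gene 4191 bp away, had 1587 in the series-level list, 882 in replicate 1 and 713 in replicate 2. lncRNA:CR31044 had 1456, 800 and 664, lncRNA:CR44810 had 1332, 673 and 654, and lncRNA:CR46036 had 1319, 749 and 575. The coding start nearest to the lncRNA:CR44810 summit was that of slbo itself, 4532 bp away, and the sources used here do not say how much of that neighbourhood the transgene repeats. The lncRNA:CR46036 summit lay in an intron of osa, a subunit of the Brahma chromatin remodelling complex, on the opposite strand. Each of these 6 summits had a peak in both replicates, and 5 of them, all but that of lncRNA:CR44810, ranked within the first 100 peaks of both replicates' lists.

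The next 4 in rank were lower. asRNA:CR44429, antisense in gce (germ cell-expressed, a juvenile hormone receptor), had 902 in the series-level list, 492 in replicate 1 and 409 in replicate 2. The neighbours lncRNA:CR44868 and lncRNA:CR44867, both in introns of beat-Ib, which encodes a guidance protein of the Beat family, had series-level signals of 724 and 697. mir-9377, in Tis11, which encodes an mRNA decay factor, had 676 in the series-level list, 361 in replicate 1 and 308 in replicate 2. The summits at ranks 11 to 15 of the set, named after their values were seen, were those of lncRNA:CR45997 (673), lncRNA:CR46243 (629), lncRNA:CR45325 (622), lncRNA:CR42657 (615) and lncRNA:CR45541 (611). Their nearest coding starts were those of mbl at 2796 bp, Myc at 9275 bp, CG18128 at 870 bp, nej, the fly CBP acetyltransferase, at 726 bp, and Hex-A, a hexokinase, at 1760 bp.

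The 12 genes with 2 summits each ran from strong pairs to weak ones. Beside lncRNA:CR44619, both summits were above 500 at lncRNA:CR45251 (562 and 524), and lncRNA:CR44366 had 315 and 290. One summit was the stronger at lncRNA:CR44749 (246 and 75.4), lncRNA:CR43700 (175 and 77.3) and lncRNA:CR43334 (316 and 60.9). lncRNA:CR45642 had 100 and 89.3, and tRNA:Thr-AGT-1-2 had 64.1 and 48. In the other 4, asRNA:CR45009, lncRNA:CR45261, lncRNA:CR45517 and snRNA:7SKa, the second summit had a signal under 40 and lay 201 to 204 bp from the first.

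Long non-coding genes were also split by the small RNAs they hold, a grouping made after the values were seen and given as counts only. Of 37 long non-coding genes that hold a microRNA hairpin on their own strand, 10 had a summit of the set at an annotated start (27.0%, 15.4 to 43.0). Some of these starts lie inside the gene, as at lncRNA:CR43626, lncRNA:CR43650 and lncRNA:CR44206. Of 10 that hold a snoRNA gene 5 had any summit (50%, 23.7 to 76.3) and 2 had one of the set (20%, 5.67 to 51.0). Of the 2473 that hold neither, 253 had any summit (10.2%, 9.10 to 11.5) and 136 had one of the set (5.50%, 4.67 to 6.47). The number of annotated starts and the admitted bases were not computed for these groups, so the shares do not compare them at equal annotation.

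The 10 microRNA transcripts ran over a wide range of signal. lncRNA:CR31044 (mir-279 and mir-996), microRNAs known in flies for limiting neuron and border cell fates, had 1456 as given above, with its summit 111 bp upstream of the start. lncRNA:CR43626 (mir-282) had 428 in the series-level list, 222 in replicate 1 and 196 in replicate 2. lncRNA:CR43334, the transcript of bantam, a growth-promoting microRNA that blocks apoptosis, had 316, 171 and 147. That summit lay 492 bp upstream of the start, and a weaker one of 60.9 lay 25 bp downstream of the start. lncRNA:CR43857 (mir-275) had 314, 165 and 145, and lncRNA:CR43650 on 2R (mir-8) had 257, 171 and 91.3. The rest were weaker: lncRNA:CR43314 (mir-bft) 146, lncRNA:CR44206 (mir-184) 120, lncRNA:CR43651 (mir-14) 89.9, lncRNA:CR45910 (mir-1000) 69.9 and lncRNA:CR43459 (mir-277 and mir-34) 68.0 in the series-level list. The summits at the starts of lncRNA:CR45910 and lncRNA:CR43459 had no peak in either replicate's own list. The transcripts lncRNA:let7C, lncRNA:iab4, lncRNA:iab8 and lncRNA:Hsromega, which also hold hairpins, had no summit within 500 bp of a start.

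Of 260 microRNA hairpins, 18 had any summit within 500 bp (6.92%, 4.42 to 10.7) and 13 one of the set. Behind mir-9377, mir-275 had 578 in the series-level list, 314 in replicate 1 and 273 in replicate 2. That summit lies 442 bp upstream of the hairpin and is separate from the one at the start of lncRNA:CR43857. mir-34, known for its part in ageing and neuron maintenance, had 216, 115 and 106. mir-2282 had 123, 71.1 and 50.1, and the bantam hairpin had 100, 62.8 and 43.0. With mir-9377, these were the 5 hairpins with a peak in both replicates. The other 6 had series-level signals of 62.4 (mir-967) to 86.9 (mir-4968), with mir-92b at 85.2 and mir-279 at 75.7. mir-4968 met the rule only by the record of a mature arm. None of the 11 hairpin summits lay within 100 bp of the hairpin's annotated start.

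snRNA genes, most of whose RNAs are part of the spliceosome, had the highest share of genes with any summit, 7 of 32 (21.9%, 11.0 to 38.8). Its interval overlapped those of tRNA genes (12.4%, 9.10 to 16.7), snoRNA genes (10.8%, 7.61 to 15.1) and long non-coding genes (10.6%, 9.49 to 11.9). The summit at snRNA:U6:96Ac, which lies within 500 bp of the start of snRNA:U6:96Ab too, had 365 in the series-level list, 226 in replicate 1 and 139 in replicate 2. snRNA:U2:34ABb had 271, 162 and 114, and snRNA:U1:95Ca had 203, 152 and 58.6. snRNA:7SKa had 157, 92.0 and 58.5, with a second, low summit of 21.9 located 201 bp from the first and overlapping the same replicate peaks. snRNA:U4:39B had 120 in the series-level list and 84.8 in replicate 1 and no peak in replicate 2's list, while snRNA:U12 had 82.8 and a peak in replicate 2's list only (50). Of the 24 snRNA genes that RNA polymerase II reads, 4 had a summit (16.7%, 6.68 to 35.9). Of 9 other RNA polymerase III genes 3 had one, snRNA:U6:96Ab, snRNA:U6:96Ac and snRNA:7SKa, and the 7SL RNA genes, RNaseP:RNA, RNaseMRP:RNA, snRNA:7SKb and snRNA:U6:96Aa had none. Copies of U1, U2 and U6 genes are near-identical, so a peak at one copy and none at another is uncertain.

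tRNA genes had weak summits. Of 290 tRNA genes 36 had any summit (12.4%, 9.10 to 16.7) and 24 had one of the set. Genes that share a summit were each counted, and the interval treats them as separate. Of the 18 tRNA summits, 4 had more than 1 non-coding gene within 500 bp. The highest, at tRNA:Val-CAC-1-1, had 189 in the series-level list, 134 in replicate 1 and 54.4 in replicate 2, and tRNA:Gln-TTG-2-1 had 162, 89.9 and 71.3. These were the 2 of 18 tRNA summits with a peak in both replicates (11.1%, 3.10 to 32.8), and 9 had one in neither. tRNA:Ala-TGC-2-1 had 147 and tRNA:Pro-AGG-1-2 had 105 in the series-level list, tRNA:Ala-AGC-2-8 had 93.6, and the lowest, tRNA:Cys-GCA-1-3, had 47.9. The median tRNA summit stood at percentile 18.8 of all summits by signal, against 49.9 for long non-coding genes and 62.3 for snRNA genes, and none reached the highest quintile. With 9 of 160 and 4 of 117 summits in the replicates' own lists, tRNA genes made up 4.52% ± 1.56 of the set there (SD, n = 2), against 8.78% in the series-level list. The glycine tRNA summits printed above were among the weak ones, with 84.9 at tRNA:Gly-GCC-1-5 and 71.5 at tRNA:Gly-GCC-1-3, and the second had a peak in neither replicate's list.

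snoRNA genes guide the modification of ribosomal RNA, and their hosts, the Uhg genes, are spliced transcripts whose product is the snoRNAs in their introns. Of 269 snoRNA genes 29 had any summit (10.8%, 7.61 to 15.1) and 15 had one of the set. snoRNA:Or-ACA6, in egr, the fly TNF ligand gene, had 472 in the series-level list, 256 in replicate 1 and 217 in replicate 2, snoRNA:Or-CD4 had 242, 155 and 88.9, and snoRNA:abba-a, in tn, had 185, 98.1 and 92.3. The other summits whose nearest start was that of a snoRNA gene were at or below 125 (snoRNA:Psi18S-525a) in the series-level list, and snoRNA:U3:54Ab had 114. snoRNA:Or-ACA9, with 173, is annotated as a long non-coding gene and was counted there. Among the 15 genes, snoRNA:Or-aca5, snoRNA:Psi28S-2949 and snoRNA:Me28S-G3081a were within 500 bp of a summit nearer to their host's start. None of 17 scaRNA genes had a summit. Of 7 Uhg hosts 5 had any summit, and those of Uhg4 and Uhg1, both on 2R, were in the set. Uhg4 had 578 in the series-level list, 363 in replicate 1 and 209 in replicate 2, 88 bp upstream of the start, and Uhg1 had 268, 154 and 116, 105 bp upstream. The summits of Uhg8, Uhg5 and Uhg2 also had a coding start within 500 bp.

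Of the 38 long non-coding genes with a name in place of a CR number, 3 had any summit (7.89%, 2.72 to 20.8), a share near the 10.6% of all long non-coding genes. lncRNA:roX1, an RNA of the dosage compensation complex, had 157, lncRNA:TS3 had 66.5, and lncRNA:enrr, with 1147, also had a coding start at its own start and was outside the set. lncRNA:roX2, lncRNA:Hsromega, lncRNA:bxd and lncRNA:acal had none. The pseudogenes in the set were CR31032 with 300 in the series-level list, 195 in replicate 1 and 103 in replicate 2, TwdlU with 84.2 and Ir48a with 64.3, and of 268 pseudogenes 14 had any summit (5.22%, 3.14 to 8.58).

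Over the whole set the signal was spread to both ends of the list. The series-level signal had a median of 108 (quartiles 75.4 and 257, range 5.29 to 2097), against 133 (88.1 and 247) at coding promoters with starts on 1 strand only, here single-direction promoters (2600 summits), and 202 (116 and 370) at promoters with coding starts on both strands (divergent, 1213 summits). Ranked among all summits, the median member stood at percentile 43.3, against 55.0 and 71.7, and against 41.7 for summits with no start site within 500 bp. By quintiles of all summits from low to high signal, the members numbered 54, 45, 26, 32 and 48, so the middle was the least filled. The difference from single-direction promoters in median percentile, -11.6 points, did not hold within the replicates: it was -2.55 in replicate 1's own list and 5.44 in replicate 2's. Of the members 5 had a signal under 40, as had 201 of all summits, and each shared 74 to 129 bp with a stronger peak at 201 to 204 bp.

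**Figure D2:**
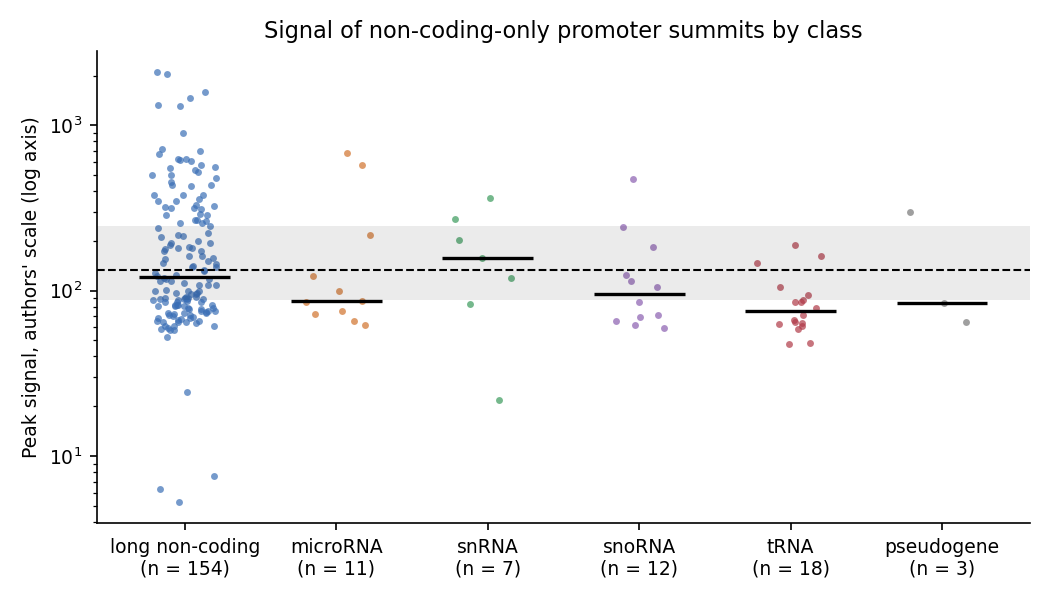
Series-level signal of each of the 205 summits (points, log axis) by class of the nearest non-coding gene, with class medians as black bars; the dashed line and grey band are the median (133) and quartiles (88.1 and 247) of single-direction coding promoters. Long non-coding summits reach 2097 and tRNA summits stay at or below 189.

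Fewer members than coding promoter summits were found in both replicates. In all, 100 of 205 members (48.8%, 42.0 to 55.6) overlapped a peak of both replicates' own lists, against 57.4% at single-direction and 73.8% at divergent promoters, and 53.7% of all summits. The difference from single-direction promoters was -8.60 points (95% Newcombe interval -15.6 to -1.54). Another 22.9% of members overlapped neither list, against 12.6% and 3.22%. The members were near the 4696 summits with no start site within 500 bp, of which 46.8% (45.3 to 48.2) were in both lists and 24.3% in neither. Split by quintile of series-level signal, from low to high, 5.56, 11.1, 53.8, 93.8 and 100% of members were in both replicates, against 5.82, 10.8, 54.5, 91.9 and 99.7% of single-direction summits. The series-level signal comes from the same replicates that give the overlap, so this split is a description only. Of the 63 members without a thresholded peak in replicate 1 all 63 overlapped a lower-ranked peak there, and 87 of 89 did so in replicate 2. Over the 100 members in both lists, the signals of the replicates had a Spearman correlation of 0.892, a description across summits of 2 libraries.

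**Figure D3:**
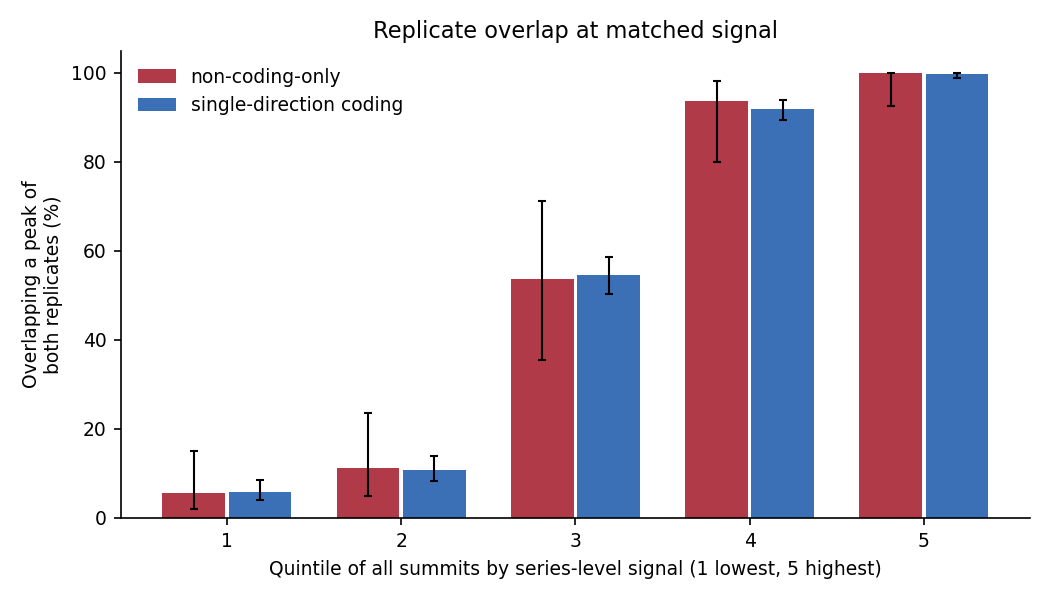
Share of summits that overlap a peak of both replicates' own lists, by quintile of series-level signal, for non-coding-only summits (red) and single-direction coding summits (blue), with 95% Wilson intervals. The intervals of each quintile overlap, with 5.56 and 5.82% in the lowest and 100 and 99.7% in the highest.

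**Figure D4:**
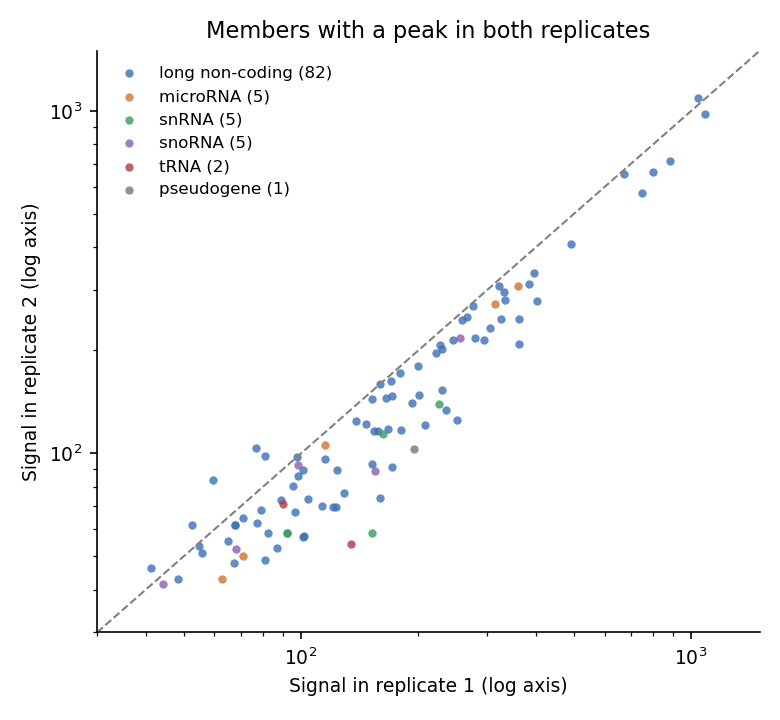
Signal in replicate 1 against replicate 2 (log axes) for the 100 members with a peak in both lists, coloured by class, with the line of equal values dashed. Points follow a common trend (Spearman 0.892), and the highest are the lncRNA:CR44619 summits, at 1043 and 1090 and at 1083 and 977.

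Fewer summits lay within 100 bp of the nearest start of their own kind than at coding genes. The median member was 198 bp from the nearest non-coding start, and 27.3% (21.7 to 33.8) lay within 100 bp, against 43.9% at single-direction and 72.1% at divergent promoters. The difference from single-direction promoters was -16.6 points (-22.6 to -9.86), and it was -21.4 and -15.7 in the lists of replicates 1 and 2. Of the bases that the rule admits, 23.2% lie within 100 bp of a start, so the members were close to an even spread. Upstream of the start lay 59.0% of members, against 76.6 and 83.8%, with 48.5% of the admitted bases upstream. These shares of bases were not computed for coding promoters. Divergent summits have, by definition, coding starts on both strands within 500 bp, which bears on both measures. By class, 8 of 18 tRNA summits and 3 of 7 snRNA summits were within 100 bp, with 27.3 and 23.4% of their admitted bases there. At snoRNA genes 2 of 12 were (35.9% of bases), and at microRNA hairpins 0 of 11 (27.7%). Downstream of the start lay 6 of the 7 snRNA summits, the neighbouring pair at snRNA:7SKa among them. Of the bases admitted for snRNA genes, 45.1% lie upstream. Just inside the rule, 22 members lay 451 to 500 bp from the start with a median signal of 104, and just outside it 27 summits at 501 to 550 bp had a median of 157. On the coding side, 9 members 501 to 550 bp from a coding start had a median of 96.9, and 9 summits kept out by a coding start at 451 to 500 bp had 85.2.

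**Figure D5:**
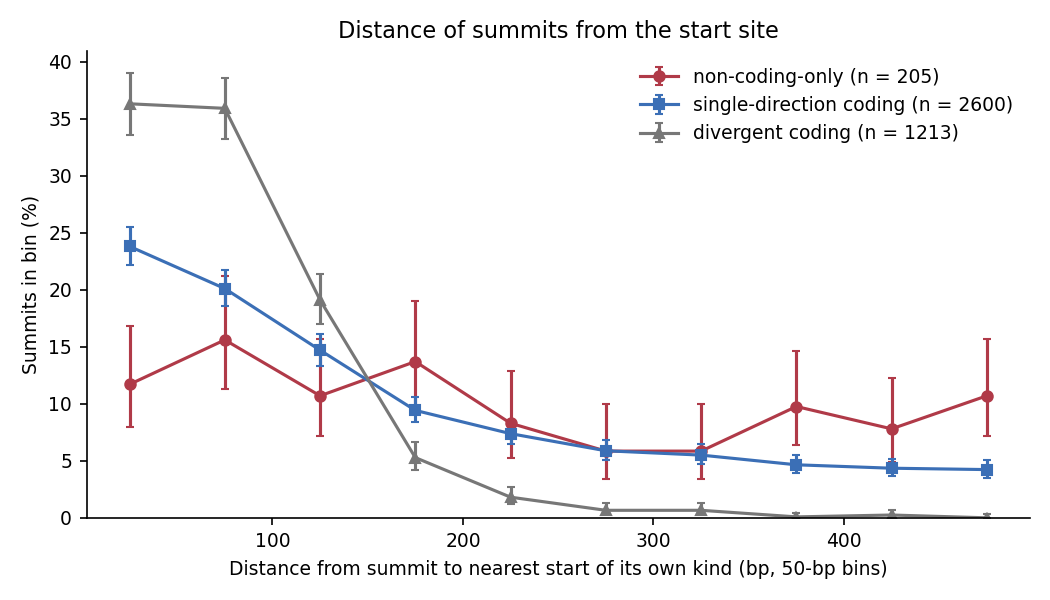
Share of summits per 50 bp of distance from the nearest start of their own kind, for non-coding-only (red), single-direction (blue) and divergent coding promoters (grey), with 95% Wilson intervals. Non-coding-only summits run between 5.85 and 15.6% in every bin, while single-direction summits start at 23.8% in the first.

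Most members were outside coding genes, under a rule that itself keeps out coding starts within 500 bp. The share of the admitted bases outside coding genes was not computed. Outside protein-coding genes lay 133 (64.9%), in introns 63 and in exons 9; in introns, 43 of the non-coding genes ran opposite to the host and 20 along it. The nearest coding start was at a median of 3174 bp, against 3220 bp for summits with no start site within 500 bp. Of the members 43 had a coding start within 1 kb. By arm, members were 53 of 1646 summits on 2R (3.22%, 2.47 to 4.19), 44 of 1565 on 2L (2.81%), 41 of 1984 on 3R (2.07%), 38 of 1856 on 3L (2.05%), 28 of 1653 on X (1.69%, 1.17 to 2.44) and 1 of 10 on chromosome 4. The intervals of 2R and X did not overlap. Shares of the admitted bases were not computed per arm, so these values do not compare the arms at equal annotation.

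In sequence, 2 elements known from housekeeping coding promoters were at no member summit. TATCGATA, the core of the DNA replication-related element that DREF binds, was within 50 bp of none of the 205 summits, against 4.35% of single-direction and 6.76% of divergent promoters; the difference from single-direction promoters was -4.35 points (-5.20 to -2.37). The Wilson interval of 0 of 205 reaches 1.84%. The element was in 2.38% of all summits and in 0.256% of the 4696 summits with no start site within 500 bp. GGTCACACT, part of the motif 1 site bound by M1BP, was also in no member, against 1.42 and 2.72%, and the interval of the first of these differences, -1.96 to 0.457 points, included 0. All motifs were searched on both strands in the 100 bases at the summit and in a flank of 100 bases. The flank lay 400 to 500 bp from the summit, on the side of higher genome coordinates only.

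The C/EBP-type site was rare at the members, and its share was not shown to differ from that of single-direction promoters. TTRYRYAA was at 9 of 205 members (4.39%, 2.33 to 8.13), in 2.93% of their flanks, and in 5.34% of all summits. The difference from single-direction promoters (4.23%) was 0.159 points (-2.07 to 3.97). The 9 included lncRNA:CR45997 in the splicing factor gene mbl (673) and lncRNA:CR43650, the mir-8 transcript (257), and none of the 10 highest summits. GAGAG, a site of GAGA factor, was at 10.7% of members and in 11.7% of flanks, and TATAAA at 16.1% and in 17.1%. The flanks of the members held TATAAA more often than those of single-direction promoters (11.2%), by 5.84 points (1.13 to 11.7), and the share was 12% in the flanks of summits with no start site within 500 bp. CAGGTA, the Zelda site, was at 2.93% and CACGTG, an E-box, at 0.976%, with 1.92 and 0.792% over all summits. GGTTCGA was at 4 members (1.95%, with 0.643% over all summits), 3 of them among the 18 tRNA summits, where the element is part of the gene. It was as frequent in the flanks, with 4 members (1.95%) and 3 of the 18 tRNA summits.

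Base composition differed among the class means. The 100 bases at member summits averaged 61.5% A+T (SD 11.9 over 205 summits), with 58.2% in the flanks, against 59.9 and 57.3% at single-direction promoters. Around snRNA summits it was reversed, with 46.9% at the summit and 74.3% in the flank over 7 summits, and around tRNA summits it was 56.2 and 63.9% over 18. The snRNA:7SKa window printed above had 26.0% A+T, the lowest of the set together with that of asRNA:CR43683, while the first 5 printed had 58.0 to 80.0%.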

How the data were processed

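ChIP-seq peak lists of 2 biological replicates were used, on the dm6 assembly per the labels. The authors deposited 8 lists; how reads were aligned and peaks called is not given in the sources used here. Column 7, the signal, is the authors' value per peak, in no stated unit. The score of the deposited thresholded lists comes from the irreproducible discovery rate and is at least 830. Depth per sample is unknown; all intervals are 95% Wilson (shares) or Newcombe (differences), and cover counting error only.

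Start sites came from the Ensembl release 115 annotation. Mature microRNA records were counted under the name of their hairpin, and their own starts also served as start sites. Classes follow the nearest non-coding start, and summits with coding starts on 1 or both strands within 500 bp served for comparison. Overlap needed 1 bp. With 1 group of samples there is no test between groups, and no p-value is given. Named were the 5 highest members of each class, the 10 highest of all classes, the 12 genes with 2 members and the members of lists of RNA polymerase III, snRNA, microRNA, snoRNA, named long non-coding genes and pseudogenes. The members and lists were chosen with earlier results of these data known. Scripts (Python 3.11.15, numpy 2.4.6, pandas 2.3.3) were tested on simulated data. Alternatives were other promoter widths, lists, scores, overlap, motif windows and gene sets.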

Additional observations from a re-analysis of the deposited data

How the results depend on the processing

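No paired analysis was possible because the samples form 1 group. Of 115 values recomputed under 15 settings, 89 stayed within the interval, the replicate spread or 1.5 times of the reported value. With promoters of 250 bp the members were 1.62% of summits, 3.80% of non-coding genes had one and 44.0% lay within 100 bp; with 1000 bp these were 3.19, 7.28 and 15.5%, as the width itself sets them. Overlap with both replicates was 60.2% with a score of 1000 only and 40% with a reciprocal overlap of 50%. GAGAG was at 4.39% within 25 bp. In the replicates' own lists the members numbered 117 to 160, long non-coding genes made up 73.8 to 81.2%, tRNA genes 3.42 to 5.62%, the median percentile was 51.2 to 57.7, its difference from single-direction promoters -2.55 to 5.44 points, and mean A+T 63.1 to 63.9%. Added after seeing the data, keeping summits in both replicates gave 82.0% long non-coding, 2.00% tRNA, percentile 79.3, a difference of 4.91 from single-direction promoters, 18.0% within 100 bp, GAGAG at 7% and 65.1% A+T. The cause was not tested for the lists and overlap rules. Leaving out summits under a signal of 40 moved no value past these limits. TATCGATA was at 0 members in each of the 8 settings run for it. The score of 1000, the signal minimum of 40, the summits in both replicates and the 25-bp window could give no other value. They keep only parts of the same windows.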
